A study of Mus musculus with 11 samples.

Results

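The transcripts of 10 enzymes of brain glycolysis were followed in mouse hippocampus: Hk1, Gpi1, Pfkm, Pfkl, Aldoa, Tpi1, Pgk1, Pgam1, Eno2 and Ldhb. They were chosen as enzymes of the pathway with earlier results of these data known, and taken by symbol from the 24421 gene rows that each count file holds, and all 10 were present in every file. In GENCODE M21 Hk1 and Pfkl lie on chromosome 10, Gpi1 and Aldoa on 7, Tpi1, Eno2 and Ldhb on 6, Pfkm on 15, Pgk1 on X and Pgam1 on 19, with Tpi1 (bases 124810586 to 124814296) and Eno2 (124760053 to 124769673) near each other. RNA was sequenced from hippocampi of offspring aged 14 to 18 weeks, whose mothers had been treated through the nose on gestational days 9, 12 and 15 and gave birth on day 21. The PM group (6 libraries) came from mothers given particulate matter, a suspension of fine airborne particles, at 200 µg per kg, and the vehicle group (5 libraries) from mothers given normal saline. The libraries were deposited as a first set of 3 PM and 3 vehicle libraries and a second set of 3 PM and 2 vehicle libraries. The labels give no strain, genotype or sex, and do not say that each library is an animal or litter of its own. The p-values therefore set the group difference against the spread between these libraries, part of which may be technical. That spread may understate the one between animals or litters. The labels call the molecule polyA RNA, while the protocol describes removal of ribosomal RNA, so which RNA was captured is not settled by the labels.

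Glycolysis splits glucose into pyruvate and yields ATP and NADH in the cytosol. In its preparatory steps glucose is phosphorylated, rearranged and cut into a pair of interconvertible triose phosphates, and in its payoff steps these are oxidised and dephosphorylated to pyruvate, which lactate dehydrogenase can exchange with lactate. The adult brain relies on glucose as its main fuel, and neurons and astrocytes differ in the isozymes they use, with Eno2 known as the neuronal enolase and Aldoc as an aldolase of astrocytes.

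The promoters of 3 of the enzymes are shown because their genes span the responses described below: Pgk1 had the largest difference between PM and vehicle, Pgam1 an intermediate one and Gpi1 one of the smallest. Each sequence is the 250 bases before the RefSeq start on GRCm38.p6, read along the gene's strand. Pgk1 is from chrX:106186850-106187099 (plus strand), Pgam1 from chr19:41911621-41911870 (plus strand) and Gpi1 from chr7:34230337-34230586 (minus strand). Capitals mark ACGTG, a form of the core of the motif bound by hypoxia-inducible factors, on either strand. Other forms of that core were not searched.
Pgk1: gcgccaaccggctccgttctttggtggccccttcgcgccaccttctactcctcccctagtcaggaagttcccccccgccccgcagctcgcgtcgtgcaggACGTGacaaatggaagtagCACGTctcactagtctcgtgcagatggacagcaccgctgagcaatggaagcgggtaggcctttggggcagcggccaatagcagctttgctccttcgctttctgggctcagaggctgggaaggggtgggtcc
Pgam1: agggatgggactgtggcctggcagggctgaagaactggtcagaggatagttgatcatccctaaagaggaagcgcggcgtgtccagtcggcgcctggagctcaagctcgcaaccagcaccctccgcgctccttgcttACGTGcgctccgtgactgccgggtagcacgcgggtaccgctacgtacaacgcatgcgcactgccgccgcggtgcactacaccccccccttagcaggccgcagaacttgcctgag
Gpi1: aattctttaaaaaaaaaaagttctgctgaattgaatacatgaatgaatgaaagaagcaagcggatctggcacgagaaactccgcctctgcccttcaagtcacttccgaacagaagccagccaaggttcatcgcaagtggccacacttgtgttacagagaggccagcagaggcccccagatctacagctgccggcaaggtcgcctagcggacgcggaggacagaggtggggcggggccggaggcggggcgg
The Pgk1 window held 2 matches, 1 on each strand, the Pgam1 window held 1 and the Gpi1 window held 0. Some of the genes have several RefSeq starts, and over the 16 windows of the 10 genes ACGTG or its reverse complement CACGT occurred in 6 (37.5%), belonging to Pfkm, Aldoa, Pgk1 and Pgam1. Among all 32851 RefSeq windows of the same length 16.6% held it. The longer CACGTG, which contains ACGTG, was found in 1 of the 16 windows and in 6.02% of all windows. The GC-box core GGGCGG was found in 5 of the 16 windows and in 32.7% of all windows, and TATAAA in 1 of the 16 windows and in 12.4% of all windows, both strands searched. The windows of Ldhb, Tpi1 and Pfkl, the next largest responders after Pgk1, held 0 matches to ACGTG, the 1 form of the core searched. The relation of the matches to the size of the response was not tested. A match describes the letters of the window and is not evidence of binding.

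All 10 enzymes were higher in the PM than in the vehicle hippocampi at an adjusted p under 0.05 (edgeR quasi-likelihood test with the set as covariate, adjusted over 14982 genes), and 0 were lower. Over all genes tested 32.7% were called higher and 36.4% lower, so calls were common in these data. The median log2 fold change was 0.97 over the 10 enzymes and -0.04 over all genes tested. For 5 enzymes (Pfkm, Pfkl, Tpi1, Pgk1 and Ldhb) the difference exceeded 1 on the log2 scale, which 11.6% of all genes did with a call in this direction. In 9 of the 10 every PM library lay above every vehicle library, Hk1 being the exception. Of all genes 24.3% were separated in that way. Summed over the enzymes, the level was 4875 to 5887 CPM (counts scaled to a common library total, with the TMM correction) in PM libraries and 2898 to 3199 CPM in vehicle libraries. In bulk tissue, more cells of a type that uses an enzyme and more of its RNA per cell cannot be told apart.

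**Figure D1:**
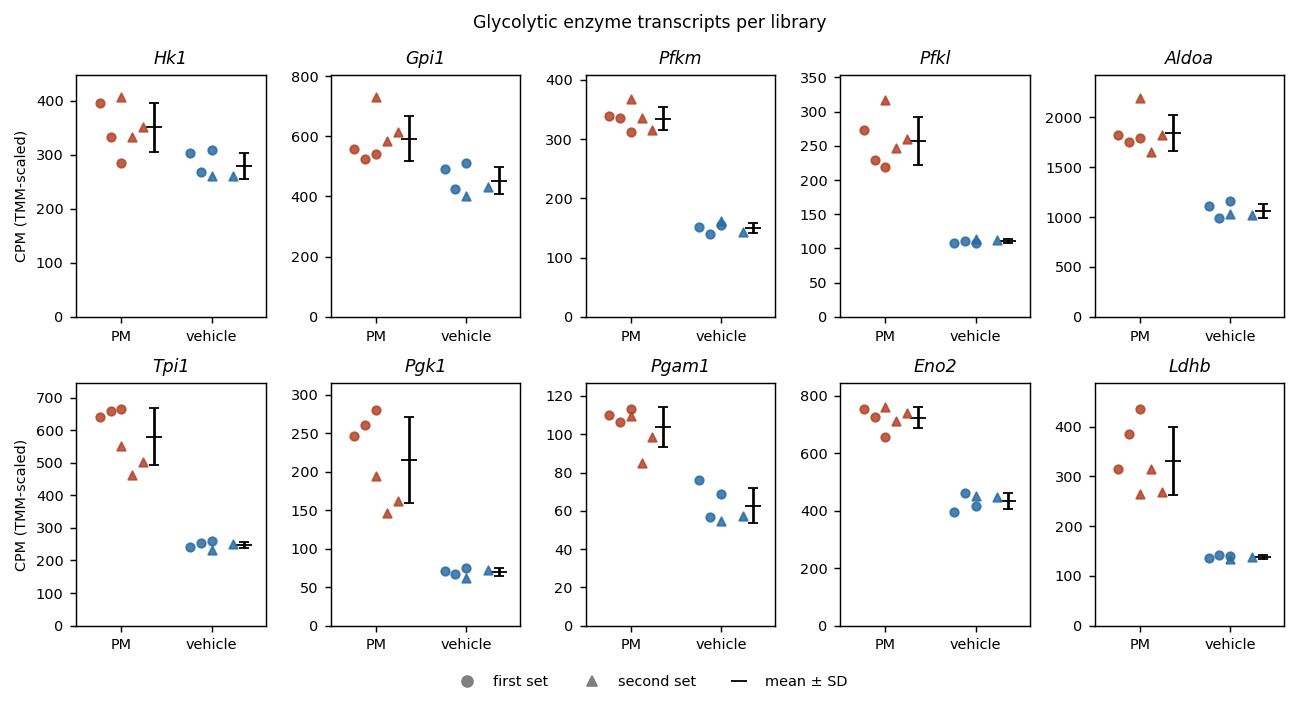
CPM of each enzyme gene (vertical axis, from 0) in the 6 PM libraries (red, left) and the 5 vehicle libraries (blue, right), with circles for the first set, triangles for the second and the bar for the mean ± SD. The groups overlap in Hk1 alone, and in Tpi1 and Pgk1 the first-set PM libraries all lie above the second-set PM libraries.

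Whole-library measures also differed between the groups. Gene counts came to 10938521 to 17763893 in PM libraries and 6012116 to 12496651 in vehicle libraries. Reads assigned to no gene were 18.8% to 34.0% in PM libraries and 60.9% to 62.0% in vehicle libraries, and reads that aligned to more than 1 place were 7.22% to 9.90% in PM libraries and 4.21% to 4.75% in vehicle libraries. The ribosomal precursor Rn45s took 4.01% to 17.0% of gene counts in PM libraries and 0.792% to 2.17% in vehicle libraries. The nuclear RNA Malat1 took 0.0827% to 0.807% in PM libraries and 2.12% to 2.33% in vehicle libraries. Fold changes fell with transcript length: the median log2 fold change was 0.64 in the quintile of genes with the shortest transcripts and -0.86 in the quintile with the longest. To allow for this, the fold changes and calls were also computed after a smooth trend on transcript length and GC content had been taken out of each library. With that trend removed 5264 of 14424 genes (36.5%) were called higher and 3870 (26.8%) lower, against 4904 higher and 5450 lower of 14982 without this step. The median of all genes then lay at 0.08, a shift of 0.13.

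The first step is the phosphorylation of glucose by hexokinase 1, encoded by Hk1, which had one of the smallest differences. Hk1 had 284 CPM in the lowest, 342 in the median and 408 in the highest of the PM libraries, against 303, 268, 309, 260 and 260 CPM in vehicle libraries 1 to 5. PM replicate 3, the lowest of its group, lay below vehicle replicates 1 and 3, so the groups overlapped. The mean was 351 ± 45.4 CPM in PM libraries and 280 ± 24.1 CPM in vehicle libraries (SD, n = 6 and 5), and the log2 fold change was 0.33 ± 0.10 (SE), with an adjusted p of 0.0119. Within the first set the log2 fold change was 0.20 (adjusted p = 0.130), and within the second it was 0.48 (adjusted p = 0.00431). The difference between the sets was 0.28 with an adjusted p of 0.242. Hk1 overlaps the antisense gene Hk1os on the opposite strand, and since the strand setting of the counting is not given, reads from the pair may be mixed. The counts assigned to Hk1os itself were low, at 0.215 to 0.816 CPM in PM libraries and 0.490 to 0.993 CPM in vehicle libraries.

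Gpi1 encodes glucose-6-phosphate isomerase, which turns glucose 6-phosphate into fructose 6-phosphate. Its PM libraries spanned 524 to 729 CPM with a median of 572 CPM, against 490, 426, 511, 403 and 432 CPM in vehicle libraries 1 to 5. The lowest PM library and the highest vehicle library were 524 and 511 CPM, so the separation was narrow. The mean was 592 ± 74.4 CPM in PM libraries and 452 ± 45.8 CPM in vehicle libraries (SD, n = 6 and 5), a log2 fold change of 0.38 ± 0.10 (adjusted p = 0.00456). It was 0.19 (adjusted p = 0.109) for the first set and 0.62 for the second (adjusted p = 0.000171). The sets differed by 0.44 (second minus first, adjusted p = 0.0401). That call was lost on leaving out any 1 of 7 libraries, namely PM replicates 2, 4 or 6 or vehicle replicates 1, 3, 4 or 5, with adjusted p up to 0.150, and when the trend on length and GC was removed (difference 0.16, adjusted p = 0.385).

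Phosphofructokinase is the committing step of the pathway, and its muscle-type (Pfkm) and liver-type (Pfkl) subunits assemble into mixed tetramers in brain. Pfkm ranged from 313 to 367 CPM (median 336) in PM libraries and was 152, 141, 156, 161 and 143 CPM in vehicle libraries 1 to 5. Pfkl ranged from 220 to 317 CPM (median 253) in PM libraries and was 107, 111, 108, 113 and 113 CPM in vehicle libraries 1 to 5. For both subunits the lowest PM library was well above the highest vehicle library. Pfkm was 2.21-fold higher in PM (log2 fold change 1.15 ± 0.07, adjusted p = 2.2e-08) and Pfkl 2.30-fold higher (1.20 ± 0.09, adjusted p = 7.7e-08). The effects in the first and second set were 1.14 and 1.16 for Pfkm, and 1.14 and 1.28 for Pfkl, with adjusted p of 0.937 and 0.566 for the differences between sets. Pfkm overlaps Senp1 on the opposite strand over 1156 bases.

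Fructose 1,6-bisphosphate is cut by aldolase A, encoded by Aldoa, the most abundant of the 10 transcripts. Aldoa had 1655 CPM in the lowest, 1805 in the median and 2186 in the highest PM library, against 1106, 991, 1156, 1028 and 1023 CPM in vehicle libraries 1 to 5. Every PM library exceeded every vehicle library, and PM replicate 4 was the highest by a wide margin. The log2 fold change was 0.79 ± 0.08 (1.73-fold, adjusted p = 1.8e-06), with 0.72 in the first and 0.88 in the second set. After the trend removal it was 0.05 (adjusted p = 0.595), just under the median of 0.08 over all genes in that fit, and -0.05 in the second set. The Aldoa symbol covers a pair of gene records in GENCODE M21. The gene overlaps Fam57b on the opposite strand over 3084 bases, and Fam57b had 60.2 to 136 CPM in PM libraries and 54.0 to 60.6 CPM in vehicle libraries.

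Triose phosphate isomerase, encoded by Tpi1, interconverts the triose phosphates made by aldolase. Tpi1 had 463 CPM in the lowest, 595 in the median and 666 in the highest PM library, against 240, 253, 260, 233 and 252 CPM in vehicle libraries 1 to 5. The 3 PM libraries of the first set (640, 659 and 666 CPM) lay above the 3 of the second (550, 463 and 501 CPM), and both lay above all vehicle libraries. The log2 fold change was 1.24 ± 0.09 (2.36-fold, adjusted p = 3.6e-08). Within the first set it was 1.39 and within the second 1.06, and the difference of -0.33 had an adjusted p of 0.0748.

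Phosphoglycerate kinase 1, the X-linked enzyme that makes the first ATP of the payoff steps, had the largest difference of the 10. Pgk1 reached 246, 261 and 281 CPM in PM replicates 1 to 3 and 195, 146 and 162 CPM in PM replicates 4 to 6, against 71.2, 67.3, 75.0, 62.0 and 72.1 CPM in vehicle libraries 1 to 5. The lowest PM library (146 CPM) was far above the highest vehicle library (75.0 CPM), and the first-set PM libraries were above the second-set ones. The log2 fold change was 1.64 ± 0.12 (3.11-fold, adjusted p = 6.6e-08). Within the first set it was 1.88 and within the second 1.32, a difference of -0.57 (second minus first, adjusted p = 0.0163). Without vehicle replicate 5 that difference was -0.45 (adjusted p = 0.134). Over all genes the set difference was called for 17.5% as higher and 12.1% as lower in the second set, and of the 10 enzymes Gpi1 was called higher and Pgk1 lower.

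Reads from Pgk1 are hard to place, because 67% of its 100-base transcript windows recur exactly in the processed pseudogene Pgk1-rs7. The corresponding share was 39.7% for Pgam1, with Pgam1-ps2, 0.796% to 8.8% for Ldhb, Gpi1, Hk1 and Tpi1, and 0 for Pfkm, Pfkl, Aldoa and Eno2. Levels of Pgk1 and Pgam1 are uncertain to that extent, and the part of it in their fold changes was not tested. Since Pgk1 lies on the X chromosome, transcripts that mark sex were read as well: Y-linked genes had 0 or 1 count in PM replicates 3 and 6 and in vehicle replicates 4 and 5, and 2126 to 2436 counts in the other libraries. In the second set both vehicle libraries and 1 of the 3 PM libraries thus lacked Y-linked counts, and in the first set 1 PM library did. Of the libraries without Y-linked counts, PM replicate 3 had the highest Pgk1 level of the PM group (281 CPM) and PM replicate 6 the second lowest (162 CPM), while vehicle replicate 4 had the lowest of its group (62.0 CPM) and vehicle replicate 5 had 72.1 CPM. Xist, the RNA of the inactive X chromosome, had 207 and 918 CPM in PM replicates 3 and 6, and 2420 and 2275 CPM in vehicle replicates 4 and 5. The part of sex in the Pgk1 result was not tested.

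Phosphoglycerate mutase 1, encoded by Pgam1, moves the phosphate group of 3-phosphoglycerate, and it had the lowest CPM of the 10. Pgam1 had 84.9 CPM in the lowest, 108 in the median and 113 in the highest PM library, against 76.0, 56.8, 68.8, 54.7 and 57.4 CPM in vehicle libraries 1 to 5. The groups were apart, with the nearest libraries being PM replicate 5 and vehicle replicate 1. The log2 fold change was 0.75 ± 0.09 (1.68-fold, adjusted p = 8.4e-06), with 0.71 in the first set and 0.80 in the other.

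Eno2 encodes the neuronal enolase, which forms phosphoenolpyruvate. Eno2 had 656 CPM in the lowest, 731 in the median and 760 in the highest PM library, against 394, 462.1, 415, 450 and 449 CPM in vehicle libraries 1 to 5. It was among the least variable of the 10 in PM, with a coefficient of variation of 5.28%. The log2 fold change was 0.73 ± 0.07 (1.66-fold, adjusted p = 8.9e-07), with 0.75 in the first set and 0.71 in the other.

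Ldhb encodes the heart-type subunit of lactate dehydrogenase, the enzyme that interconverts lactate and pyruvate. Ldhb had 264 CPM in the lowest, 315 in the median and 436 in the highest PM library, against 136, 141, 141, 133 and 139 CPM in vehicle libraries 1 to 5. All PM libraries were far above the vehicle libraries, which varied by only 2.45% (coefficient of variation). The log2 fold change was 1.27 ± 0.11 (2.41-fold, adjusted p = 2.1e-07), with 1.44 in the first and 1.05 in the second set and an adjusted p of 0.0904 for that difference. Across the 10 enzymes the coefficient of variation was 5.28% to 25.8% in PM libraries and 2.45% to 14.7% in vehicle libraries, and it was larger in PM for 8. These values pool both sets and so include any shift between them. Within the first set it was larger in PM for Hk1, Pfkl, Pgk1 and Ldhb alone, and smaller for the other enzymes, such as Aldoa (1.95% in PM, 7.79% in vehicle). The share over all genes is not given here.

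Within the sets, 8 of the 10 enzymes were called higher in the first set (all but Hk1 and Gpi1), where 32.1% of all genes were. When the first set was scaled and fitted on its own, Hk1 (0.30, adjusted p = 0.0453) and Gpi1 (0.28, adjusted p = 0.0211) were called higher as well, so their first-set calls depend on the fit. In the second set all 10 were called higher, against 32.3% of all genes. After the trend removal, 9 of the 10 were called higher (all but Aldoa) and 0 lower, where 36.5% of all genes were called higher and 26.8% lower. Their median log2 fold change was then 0.57, against 0.08 over all genes. The estimate was smaller in that fit for all 10: Pgk1 stood at 1.44, Pfkl at 0.95, Pfkm at 0.91, Tpi1 at 0.71, Ldhb at 0.68, Eno2 at 0.46, Pgam1 at 0.33, Gpi1 at 0.21 and Hk1 at 0.19. The largest reductions were in Aldoa (-0.74), Ldhb (-0.59) and Tpi1 (-0.53), whose transcripts of 1549, 1304 and 1607 bases are the shortest of the 10.

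**Figure D2:**
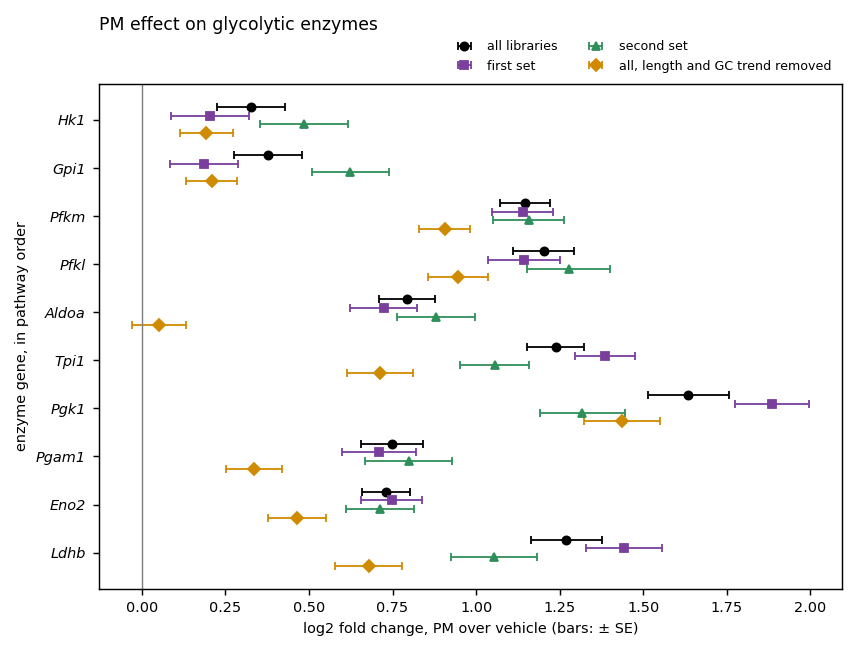
Log2 fold change of PM over vehicle (horizontal axis, bars ± SE) for each enzyme in pathway order, over all libraries, within each set, and over all libraries after the trend removal. All estimates over all libraries lie above 0, from 0.33 for Hk1 to 1.64 for Pgk1, and Aldoa moves to 0.05 with the trend removed.

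Transcript length and effect did not run in 1 order among the enzymes. Pfkl (3730 bases) and Hk1 (4278 bases), both in the quintile next to the longest, where the median of all genes was -0.24, had log2 fold changes of 1.20 and 0.33. In the shortest quintile, where the median was 0.64 and 59.5% of genes were called higher, lay Aldoa, Tpi1, Pgam1 and Ldhb, with 0.79, 1.24, 0.75 and 1.27. Pgk1 lay in the quintile above it (median 0.30), and Gpi1, Pfkm and Eno2 lay in the middle one (median 0.03).

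**Figure D3:**
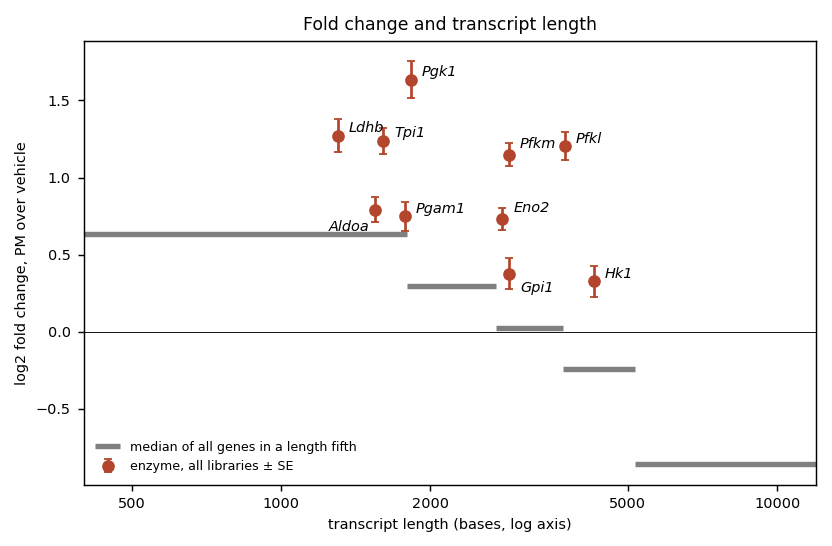
Log2 fold change of PM over vehicle (vertical axis) against transcript length in bases (log axis) for the 10 enzymes (points ± SE), with the median of all genes in each length quintile as grey bars, the outermost of which run past the axis. The enzymes lie between 0.33 and 1.64, while the grey bars step down from 0.64 to -0.86.

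Per kilobase of transcript, which allows a rough comparison between genes, Aldoa led in both groups. It had 1187 ± 117 CPM per kb in PM libraries and 685 ± 43.8 CPM per kb in vehicle libraries. In PM Aldoa was followed by Tpi1 (361), Eno2 (259), Ldhb (254), Gpi1 (205), Pgk1 (118), Pfkm (116), Hk1 (82.0), Pfkl (69.0) and Pgam1 (58.4). In vehicle libraries the order was Gpi1 (157), Eno2 (155), Tpi1 (154), Ldhb (106), Hk1 (65.5), Pfkm (52.3), Pgk1 (38.1), Pgam1 (35.3) and Pfkl (29.7). In PM, the neighbours Eno2 and Ldhb, Ldhb and Gpi1, and Pgk1 and Pfkm did not keep 1 order across the libraries and differed by less than their spread. The same held in vehicle libraries for Gpi1, Eno2 and Tpi1, and for Pgk1 and Pgam1. The places of Pgk1 and Pgam1 are uncertain, since 67% and 39.7% of their windows recur in other genes' transcripts. Lengths are those of 1 transcript per gene, and the trend on length and GC was not taken out of these levels.

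Isozymes of 1 step were compared as ratios within a library, which do not depend on library scaling but can depend on the trend on length and GC. Log2 of Pfkl over Pfkm had a median of -0.38 in PM libraries (-0.55 to -0.21) and of -0.50 in vehicle libraries (-0.53 to -0.34). The groups overlapped, and the difference of 0.05, averaged over the sets, had p = 0.450 (two-sided exact permutation test within sets, 200 arrangements, smallest p possible 0.005). Log2 of Ldhb over Ldha, the muscle-type subunit, had a median of 0.44 in PM libraries (0.20 to 0.70) and of 0.30 in vehicle libraries (0.25 to 0.43), with a difference of 0.14 (exact permutation p = 0.205). Log2 of Aldoa over Aldoc ran from 0.70 to 1.68 in PM libraries and from 1.48 to 1.64 in vehicle libraries. All PM libraries but replicate 4 lay below the vehicle libraries. The difference was -0.45 (exact permutation p = 0.020), and -0.68 in the first and -0.22 in the second set. Adjusted over the 3 ratios the p-values were 0.450, 0.307 and 0.060, so none passed 0.05. The trend on length and GC was not taken out of these ratios. With it removed, the log2 fold changes were 0.95 for Pfkl and 0.91 for Pfkm, and 0.68 for Ldhb and 0.81 for Ldha. Pfkp, a further phosphofructokinase gene, was in none of the ratios. It had 162 ± 12.0 CPM in PM libraries and 143 ± 9.87 CPM in vehicle libraries (SD). Its log2 fold change was 0.18, and 0.48 with the trend removed, smaller than those of Pfkl and Pfkm. The log2 fold changes of Aldoa and Aldoc were 0.05 and 1.19 with the trend removed.

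**Figure D4:**
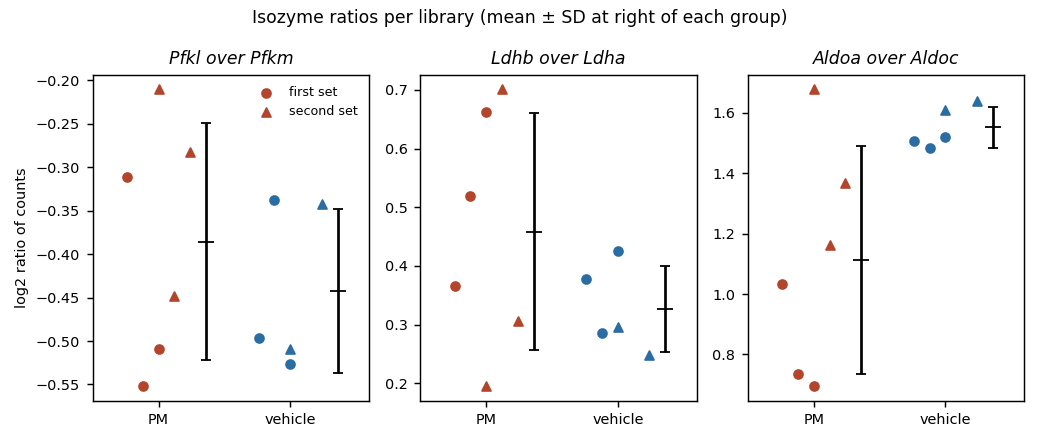
Log2 ratio of counts per library (vertical axis, not starting at 0) for Pfkl over Pfkm, Ldhb over Ldha and Aldoa over Aldoc in PM (red) and vehicle (blue) libraries, with circles for the first set, triangles for the second and bars for the mean ± SD. The Aldoa over Aldoc ratio is 0.70 to 1.68 in PM and 1.48 to 1.64 in vehicle.

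The ratio of Eno2 over Eno1, also planned, was not computed because the ubiquitous enolase Eno1 held 5 counts over all PM libraries and 0 over all vehicle libraries. Of the Eno1 transcript's 100-base windows 59% recur in other genes' transcripts, mostly in Eno1b, which itself held 15 counts over the PM libraries and 52 over the vehicle libraries. Their levels are therefore not interpretable here.

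Among 20 other genes of glycolysis, 15 passed the filter on low counts, and 9 of these were called higher, 0 lower and 6 neither. Their median log2 fold change was 0.66. Aldoc rose 2.41-fold, with 863 ± 184 CPM in PM libraries and 362 ± 32.5 CPM in vehicle libraries (log2 fold change 1.27, adjusted p = 4.3e-08). Ldha rose with a log2 fold change of 1.12. Pkm, which encodes the pyruvate kinase of brain and muscle, rose by 0.83 on that scale, and Bpgm, the bisphosphoglycerate mutase, by 1.22. Gapdh, the glyceraldehyde phosphate dehydrogenase, had 1190 ± 74.5 CPM in PM libraries and 765 ± 154 CPM in vehicle libraries (log2 fold change 0.66, adjusted p = 0.000102), and after the trend removal the log2 fold change was -0.10 (adjusted p = 0.337). It shares 78% of its transcript windows with other genes, most of them pseudogenes. Less abundant genes called higher included Eno3 (1.75), Hkdc1 (1.01) and Pgam2 (0.37, called neither way with the trend removed). Pfkp (0.18, adjusted p = 0.0587) and Hk2 (0.30, adjusted p = 0.156) were not called, though both passed with the trend removed. Gapdhs (-0.15), Adpgk (0.15) and Hk3 (0.27) were not called either, and Gapdhs was lower with the trend removed (-0.81). Pgk2, Eno1, Eno1b, Pklr and Ldhc were too low to test.

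The 11 tested regulators of glycolysis lay on the other side, with 1 called higher, 9 lower and 1 neither, and a median log2 fold change of -0.68. Prkaa2 and Prkaa1, the catalytic subunits of the energy sensor AMPK, differed by -1.51 (adjusted p = 1.0e-07) and -0.84 (adjusted p = 1.4e-06). Hif1a, the oxygen-regulated factor known to induce many glycolytic genes, had 65.5 ± 13.7 CPM in PM libraries and 118 ± 6.80 CPM in vehicle libraries (log2 fold change -0.85, adjusted p = 4.2e-06). Epas1, its relative, differed by -0.61. After the trend removal, 2 regulators were called higher and 3 lower, and Prkaa2 (-0.20), Prkaa1 (-0.15) and Hif1a (-0.17) did not pass, with adjusted p of 0.0577, 0.0748 and 0.0519.

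Of the 11 tested glucose and monocarboxylate transporters and their partners, 6 were called higher and 3 lower, with a median of 0.48. Bsg, the chaperone of lactate transporters, rose 2.35-fold (log2 fold change 1.23, adjusted p = 1.1e-08), and the lactate transporter gene Slc16a1 by 0.73. Slc16a7, the neuronal monocarboxylate transporter, fell by 2.29 on the log2 scale (6.93 ± 1.9 CPM in PM libraries and 34.6 ± 2.00 CPM in vehicle libraries, adjusted p = 1.2e-08), and the inositol transporter gene Slc2a13 fell by 1.10. With the trend removed the difference was 0.45 for Bsg, 1.30 for Slc16a1 and -0.58 for Slc16a7, and that of Slc2a13 (-0.17) did not pass. The list then held 4 called higher and 1 lower.

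Genes downstream of pyruvate divided by list. In the TCA cycle 14 of 16 were called higher and 1 lower, with a median of 0.88, and 14 and 2 with the trend removed. Examples were Sdhb, a subunit of succinate dehydrogenase, at 1.46, the malate dehydrogenase gene Mdh2 at 1.06, Idh3b at 1.01 and Suclg1 at 0.96, all with adjusted p below 0.05. For pyruvate entry to mitochondria 4 of 14 were called higher and 4 lower, with a median of 0.00. The carrier genes Mpc1 (1.31) and Mpc2 (1.13) rose, while Pdpr (-1.94), a regulatory subunit of pyruvate dehydrogenase phosphatase, and the kinase gene Pdk3 (-0.87) fell. With the trend removed 9 of the 14 were called higher and 3 lower.

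The remaining lists were small. In the pentose phosphate pathway, which branches off at glucose 6-phosphate, 5 of 7 were called higher and 1 lower (median 0.84), led by Pgls (1.59) and Taldo1 (1.55) and followed by Tkt (0.89) and Pgd (0.84). Of 9 genes of the NADH shuttles 4 were called higher and 1 lower (median 0.08), among them Mdh1 at 1.14. Of 9 genes of glycogen metabolism 4 were called higher and 2 lower (median 0.07). Pygb, the brain glycogen phosphorylase, rose by 0.81 on the log2 scale (adjusted p = 1.1e-05). Of 3 tested gluconeogenesis genes, Pcx (0.61) and Pck2 (0.89) were called higher and G6pc3 (0.17) was not. With the trend removed the calls higher and lower were 5 and 1 for the pentose phosphate pathway. They were 3 and 1 for the NADH shuttles and 4 and 2 for glycogen metabolism. Pcx and Pck2 were still called higher in that fit, while G6pc3 was called lower (-0.60). Pgls then stood at 0.79 and Taldo1 at 0.94.

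**Figure D5:**
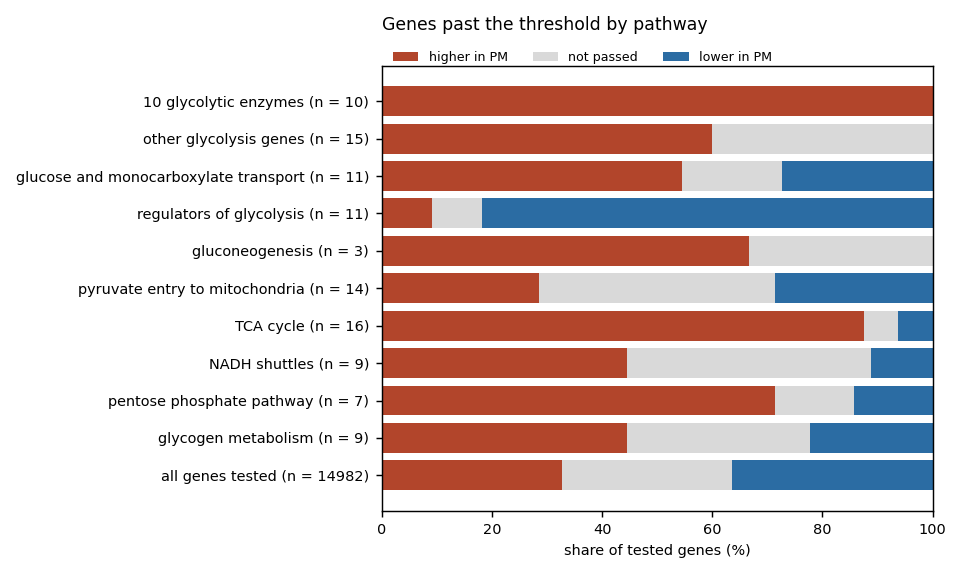
Share of tested genes (horizontal axis, percent) called higher in PM, not passed, or called lower in PM at an adjusted p under 0.05, for the 10 enzymes, for each pathway list and for all genes tested. The enzymes are at 100% higher, the regulators are mostly lower (9 of 11), and all genes divide into 32.7% higher and 36.4% lower.

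Marker lists of the cell types of the tissue are to be read against the 32.7% of all genes called higher and 36.4% called lower. Of 8 neuronal markers 3 were called higher and 3 lower, with a summed level of 6039 to 7523 CPM in PM libraries and 7085 to 7872 CPM in vehicle libraries. The hippocampal excitatory markers gave 1 higher and 3 lower of 6 (481 to 633 CPM in PM and 947 to 1112 CPM in vehicle). Among them Zbtb20 differed by -2.45 and Prox1 by -1.97, which became -0.42 and -0.81 with the trend removed, and Fibcd1 by 0.42 (0.24 with the trend removed). Among 8 astrocyte markers 4 were called higher and 2 lower (2979 to 5514 CPM in PM and 6890 to 7294 CPM in vehicle). Within that sum Slc1a2, the glutamate transporter, had 2604 ± 840 CPM in PM and 5751 ± 162 CPM in vehicle, a log2 fold change of -1.16 that became 0.36 with the trend removed. Aldh1l1, S100b and Gjb6 were among the astrocyte markers called higher, with log2 fold changes of 1.32, 1.86 and 0.74. The lower sum in PM thus did not hold marker by marker. Of 7 oligodendrocyte markers 5 were called higher and 0 lower (4060 to 9334 CPM in PM and 3746 to 4769 CPM in vehicle), and of 8 microglial markers 6 and 0 (264 to 390 CPM in PM and 194 to 221 CPM in vehicle). Endothelial markers gave 3 higher and 0 lower of 6 (143 to 281 CPM in PM and 129 to 151 CPM in vehicle), and pericyte and smooth muscle markers 3 and 1 of 5 (87.9 to 170 CPM in PM and 76.4 to 97.0 CPM in vehicle). Choroid plexus markers summed to 33.6 to 2488 CPM in PM and 73.0 to 1274 CPM in vehicle, with 0 higher and 1 lower of 5. The 4 globin genes of the red-cell list were listed at 0 counts in all 11 libraries, and Alas2, the 1 tested gene of that list, was lower in PM (-1.60, adjusted p = 0.000174). With the trend removed the calls higher and lower were 2 and 2 for neurons, 1 and 4 for hippocampal excitatory neurons, 6 and 0 for astrocytes, 6 and 0 for oligodendrocytes and 6 and 0 for microglia. They were 5 and 0 for endothelium, 3 and 0 for pericytes and smooth muscle, 0 and 1 for red cells and 0 and 0 for choroid plexus in that fit. The part of cell composition in the enzyme results was not tested.

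The genes outside these lists whose log2 CPM ran most like the mean of the 10 enzymes over the 11 libraries were Pebp1 (Pearson r = 0.997), Ppme1 (0.996), Cndp2 (0.995), Rnf187 (0.995) and Arl6ip5 (0.995). As the libraries fall into PM and vehicle groups, these values mostly describe the group difference, and 2121 of 14823 genes had r above 0.9. Pebp1 had 359 CPM in PM libraries and 90.9 CPM in vehicle libraries, and Ppme1 had 145 CPM in PM and 105 CPM in vehicle.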

How the data were processed

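Hippocampal RNA was sequenced as paired 100-base reads on an Illumina NovaSeq, per the labels' protocols. The deposited files give raw read counts per gene symbol, 1 file per library, made by the authors with FastQC 0.11.9, Trimmomatic 0.36, STAR, SAMtools 1.9, Picard 2.9.2 and HTSeq 0.9.1 according to the submitters' processing notes, which name mm10 and also hg19 as builds. The sources used here do not give the strand setting. The rows for unassigned reads were kept out of library sizes and tests; their shares are among the library measures in the text.

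Counts were filtered with filterByExpr (minimum 10), scaled by TMM and tested with edgeR 4.0.16 (limma 3.58.1, R 4.3.3) in a quasi-likelihood fit over all 14982 genes passing, with the set as covariate, Benjamini-Hochberg adjustment over all of them and a threshold of 0.05. The deposit set follows library numbers in the labels that restart in the second set. The replicate numbers used here are those of the sample titles, which run on over both sets. Effects within sets and their difference came from 1 fit with a term for each of the 4 group-by-set combinations. Isozyme ratios, with 0.5 added to each count, were tested by exact permutation within sets. DESeq2 1.42.0, other scalings, no filter, no set term, a replicate block, each library left out in turn, and removal of a smooth length and GC trend (mgcv 1.9.3) were alternatives. The procedure was tested on simulated counts. Lengths, coordinates and overlaps are from GENCODE M21, to which 95.7% of symbols matched, and shared sequence was counted as exact 100-base windows. Promoters are RefSeq's. No pair of replicate libraries agreed within sampling noise (chi-square per degree of freedom at least 2.01), so none were merged. The closest pair was vehicle replicates 1 and 3 (2.01), which stood at 12.6 and 12.9 from vehicle replicate 2. The check does not show whether libraries share an animal.

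The text names all 10 enzymes, all tested genes of the other glycolysis list, up to 4 genes of smallest p from each other list, the 5 genes most alike, and measures of library composition; a few genes under this rule are not reported here. Marker lists are given as counts, with a few genes named under the same rule. The enzymes and the lists were chosen with earlier results of these data known.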

Additional observations from a re-analysis of the deposited data

Results flagged for a closer look

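Aldoa stood at 2186 CPM in PM replicate 4, and the nearest other PM library was at 1824 CPM. It was the 1 value singled out as distant from its group among 26 groups of libraries checked, and chance alone singles out about 1 group in 20.

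The PM effect differed between the sets for 2 enzymes, by a test of the difference itself in the joint edgeR fit. For Gpi1 the effect was larger in the second set by 0.44 on the log2 scale (adjusted p = 0.0401), and for Pgk1 it differed by -0.57 (second minus first, adjusted p = 0.0163). Over all genes 17.5% were called as higher and 12.1% as lower in the second set. The 1 call each way among the 10 enzymes is thus no more than the share over all genes. The Gpi1 call was lost on leaving out any 1 of 7 libraries, and the Pgk1 call without vehicle replicate 5. In each set the 3 PM libraries lay above all vehicle libraries of that set for both genes.

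Reads outside the gene counts also separated the groups. The share of reads that aligned to more than 1 place was at least 7.22% in PM libraries and at most 4.75% in vehicle libraries. The share assigned ambiguously to more than 1 gene was at least 1.21% in PM libraries and at most 0.582% in vehicle libraries. The part of these reads in the enzyme results was not tested.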

How the results depend on the processing

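All 10 enzymes stayed higher in PM, with an adjusted p under 0.05, under DESeq2 size factors, upper-quartile scaling, the DESeq2 Wald test, no filter on low counts, no set covariate, either set fitted alone, and the omission of each library in turn. The exceptions were the length and GC trend, which left 9 (Aldoa at 0.05), and the replicate block, which left 9 (Hk1 at 0.32, adjusted p = 0.0522). Same-numbered libraries did not deviate together (correlations of -0.28 to 0.17), so the numbers are not taken to pair them. With the block 4318 of all genes were called higher and 4890 lower, against 4904 higher and 5450 lower of 14982 in the main fit. Over the other fits of all libraries 4811 (no set covariate) to 5557 (no filter on low counts) of all genes were called higher. On leaving out single libraries 4657 to 5096 were. Calls of the enzymes in these refits are to be read against those numbers.

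The sets' difference was the least stable result. The numbers of enzymes called higher and lower in the second set were 0 and 3 with DESeq2 size factors and 0 and 5 with the trend removed. On leaving out single libraries they were 0 to 2 and 0 to 3, against 1 and 1 in the main fit. Shares over all genes in these refits are not given here, so these numbers do not show whether the enzymes stand out. The difference changed sign for Pfkm with DESeq2 size factors (-0.058), and with the trend removed for Hk1 (-0.12), Pfkm (-0.31, adjusted p = 0.0480), Pfkl (-0.29), Aldoa (-0.18) and Pgam1 (-0.10), as did the second-set effect of Aldoa (-0.050). On leaving out single libraries it ranged from -0.067 to 0.105 for Pfkm, -0.022 to 0.195 for Pgam1 and -0.142 to 0.015 for Eno2. The cause was not tested. Y-linked genes had 2126 to 2436 counts in the vehicle libraries of the first set and 0 in both of the second. The part of sex in the sets' difference was not tested either. With DESeq2 size factors the first-set effects of Hk1 (adjusted p = 0.0498) and Gpi1 (0.0341) passed. The Aldoa over Aldoc ratio was -0.52 to -0.39 on leaving out single libraries (adjusted permutation p 0.050 to 0.150). The lowest count of any enzyme in a library was 335 (Pgam1, vehicle replicate 4).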
